A study of Oryza sativa with 32 samples.

Results

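The OsWAK loci are the rice loci whose description in the MSUv.7 annotation carries the name OsWAK, for rice wall-associated kinase. They were chosen by that word in the description of the representative gene model of a locus, among loci not marked as transposable elements (TEs). MSUv.7 is an assembly and annotation of the Nipponbare genome, and the study used it for its RNA-seq reads. It holds 128 such loci with 155 gene models, among 39049 loci not marked as TEs and 55986 loci in all. The libraries were made from total RNA of rice roots of Azucena (tropical japonica), IR64 (indica) and the near-isogenic lines AZU[IR64121] and IR64[AZU12.1], each with and without Al, which gives 8 groups of 4 biological replicates and 32 libraries in all. AZU[IR64121] carries an IR64 segment around the Al resistance QTL Alt12.1 in the Azucena background. Conversely, IR64[AZU12.1] carries an Azucena segment around Alt12.1 in the IR64 background. The segments overlap on chromosome 12 but differ in extent, and each line differs from its recurrent parent by its own segment. Seedlings were grown without Al, and the Al groups were then moved to a solution with an Al3+ activity of 80 μM for 4 hours. The file analysed here gives the position, strand, description and marks of each gene model and holds no expression value, so the OsWAK loci are described by what the annotation records, without replicates and without tests.

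Wall-associated kinases are receptor-like kinases of plants. In a typical member, an extracellular part that binds pectin in the cell wall is joined through the plasma membrane to a cytoplasmic serine/threonine kinase, and in many members the extracellular part holds repeats that resemble epidermal growth factor. Pectin is also a main binding site of Al3+ in the root cell wall, and in Arabidopsis the transcript of WAK1 is known to respond to Al. In rice, several members have been studied in disease resistance. OsWAK14, OsWAK91 and OsWAK92 are known to promote resistance to rice blast, OsWAK112d to reduce it, and OsWAK25 to take part in resistance to bacterial blight.

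The descriptions divide the family by words that stand for parts of the receptor. Whether the predicted proteins have these parts was not examined. Receptor-like protein kinases, a term for proteins with both the extracellular part and the kinase, made up 72 of the 128 loci (56.2%). Receptor-like cytoplasmic kinases, a term for proteins with the kinase but without the extracellular part, accounted for 27 loci (21.1%). Another 12 loci (9.4%) were described as receptor-like proteins, a term for proteins with the extracellular part but without the kinase. The remaining loci were 12 short genes (9.4%) and 5 pseudogenes (3.9%). No member had a description outside these 5 classes. The receptor-like protein kinases were found on 11 of the 12 chromosomes, the cytoplasmic kinases on 8, the receptor-like proteins and the short genes on 5 each, and the pseudogenes on 2.

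Loci of the family were found on every chromosome but in very unequal numbers. Chromosome 4 held 30 of them and chromosome 10 held 21. These 2 chromosomes carried 39.8% of the OsWAK loci (51) and 14.6% of all loci not marked as TEs. Chromosome 9 followed with 15 and chromosome 2 with 14. Chromosome 5 had a single member, OsWAK56 (LOC_Os05g04460), a receptor-like protein kinase on the minus strand from 2053474 to 2057590. Relative to gene content, the density was 9.16 OsWAK loci per 1000 non-TE loci on chromosome 10, 8.78 on chromosome 4 and 6.64 on chromosome 9. It was 3.39 on chromosome 2 and at or below 2.96 on the other 8 chromosomes, with 0.32 on chromosome 5, against 3.28 over all loci not marked as TEs. The subtypes were not spread evenly either. On chromosome 7 the 7 members were 4 cytoplasmic kinases, 2 pseudogenes and 1 short gene, without any receptor-like protein kinase. All 4 members on chromosome 3 were receptor-like protein kinases, and on chromosome 1 cytoplasmic kinases (6) outnumbered receptor-like protein kinases (4). Chromosome 4 carried 5 of the 12 receptor-like proteins and 5 of the 12 short genes.

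**Figure D1:**
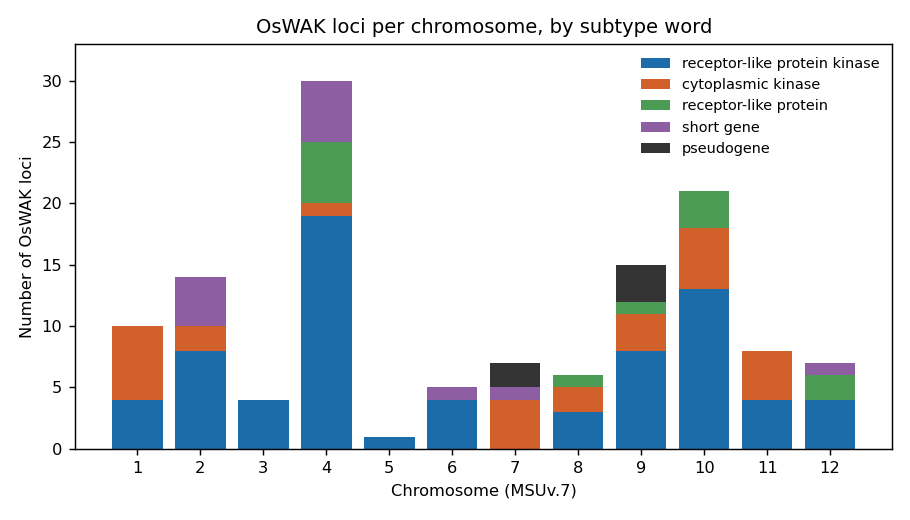
Number of OsWAK loci on each rice chromosome (y axis, loci; x axis, chromosome), with the bar divided by the subtype word in the description. Chromosomes 4 and 10 stand highest with 30 and 21 loci, chromosome 5 has 1, and chromosome 7 has no receptor-like protein kinase.

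On the strands, 72 members lay on the minus strand and 56 on the plus strand, that is 56.2% on the minus strand, against 49.4% of all loci not marked as TEs. On chromosome 7 all 7 members were on the plus strand. On chromosome 2, 10 of 14 were on the minus strand, and on chromosome 4, 18 of 30.

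Length was measured over the whole stretch that the gene models of a locus cover and therefore includes introns and untranslated regions, whose positions the list does not give. OsWAK loci had a median length of 3390.5 bp, with the middle 50% between 2514.25 and 4926.5 bp, while loci not marked as TEs had a median of 2186 bp, with quartiles at 981 and 3954 bp. The other receptor-like kinases of the annotation, 542 loci with the words receptor and kinase and no OsWAK name, were close to the family with a median of 3260 bp. Among the OsWAK loci, 7 were under 1000 bp and 7 were over 8000 bp.

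The receptor-like protein kinases had a median length of 3572.5 bp and ranged from 954 bp in OsWAK96 (LOC_Os10g02276) to 9497 bp in OsWAK26 (LOC_Os03g44140). Lengths of 2000 bp or more were found in 68 of the 72. The cytoplasmic kinases were more spread. Their median was 2880 bp, and they included both OsWAK100 (LOC_Os10g05170) with 483 bp and the longest locus of the family, OsWAK10d (LOC_Os01g49529), with 14257 bp. Receptor-like proteins had a median of 2549.5 bp, from 912 bp in OsWAK113 (LOC_Os10g17890) to 9520 bp in OsWAK30/31 (LOC_Os04g14304). The 5 pseudogenes lay between 1056 bp in OsWAK68 (LOC_Os07g14490) and 3319 bp in OsWAK86 (LOC_Os09g16980). The short genes were not short as loci. Their median was 4775 bp, which was the highest of the 5 classes, and 5 of the 12 were longer than 5000 bp. They ranged from 291 bp in OsWAK62 (LOC_Os06g07260, chromosome 6, 3477113 to 3477403) to 8333 bp in OsWAK23 (LOC_Os02g56420, chromosome 2, 34545277 to 34553609), and 4 were under 2000 bp. The ranges of all 5 classes overlapped. Coding lengths are not in the list, so whether the predicted proteins of the short genes are short was not examined.

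**Figure D2:**
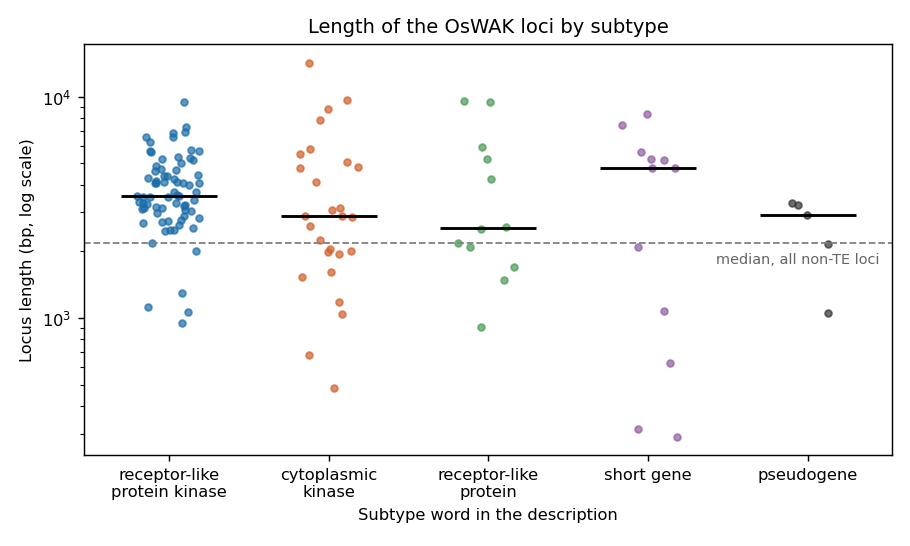
Length of each OsWAK locus in bp (y axis, log scale) by the subtype word of its description (x axis). Each point is a locus, the black line is the median of the class and the dashed line the median of all loci not marked as TEs (2186 bp). The short genes run from 291 to 8333 bp, with the highest median of the classes.

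Most members had a single gene model. More than 1 model was listed for 12 of the 128 loci (9.4%), against 16.0% of the loci not marked as TEs and 10.3% of the other receptor-like kinases. With 3 or more models there were 6 loci. OsWAK4 (LOC_Os01g20900), a cytoplasmic kinase, had the most with 7. OsWAK112d (LOC_Os10g10130), the receptor-like protein kinase known as a negative regulator of blast resistance, and OsWAK127b (LOC_Os12g42044), a short gene, had 5 each. OsWAK10d had 4, and OsWAK32 (LOC_Os04g24220) and OsWAK128b (LOC_Os12g42060) had 3 each. In most of the loci with more than 1 model, the representative model covered nearly the whole extent of the locus. How far the other models reach was not examined. The representative model of OsWAK4 was 4407 bp long within a locus of 7825 bp, a difference of 3418 bp. For OsWAK99 (LOC_Os10g02720) the difference was 1833 bp and for OsWAK53b (LOC_Os04g51050) 819 bp, and for the other 9 loci it was at most 83 bp.

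The annotation marks a locus as expressed from transcript evidence gathered for the annotation itself, not from the root libraries. By this mark 126 of the 128 OsWAK loci (98.4%) were expressed, against 93.5% of loci not marked as TEs and 75.8% of TE loci. The 2 without the mark were both cytoplasmic kinases. OsWAK93 (LOC_Os10g01390) lies on the minus strand of chromosome 10 from 239156 to 242301 and is 3146 bp long. OsWAK118 (LOC_Os11g35260) lies on the minus strand of chromosome 11 from 20667562 to 20668239 and is 678 bp long. All 5 pseudogenes and all 12 short genes carried the mark. In the other families with a shared name examined here, at least 99.1% of the loci were marked as expressed, so that the mark separated few loci in any of them. For all 128 members the mark and the word expressed in the description went together.

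The numbers of the names ran from OsWAK1 to OsWAK129 and largely followed the chromosomes. OsWAK1 to OsWAK10d were on chromosome 1, OsWAK11 to OsWAK24 on chromosome 2, OsWAK25 to OsWAK28 on chromosome 3, OsWAK61 to OsWAK65 on chromosome 6 and OsWAK66 to OsWAK72 on chromosome 7. Chromosome 10 held OsWAK93 to OsWAK114, chromosome 11 OsWAK116 to OsWAK123 and chromosome 12 OsWAK124 to OsWAK129b. They comprised 126 different numbers, since 49, 78 and 101 were not used, 35, 89 and 129 were each shared by 2 loci, and LOC_Os04g14304 carried the double number 30/31. Between neighbouring members on a chromosome, the number rose in 99 of 116 pairs (85.3%) and in 87 of them by exactly 1. It stayed the same in 3 pairs and fell in 14. Of the pairs that fell, 7 were on chromosome 4, 3 on chromosome 7 and 1 each on chromosomes 3, 8, 9 and 11.

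The breaks in the order were of several kinds. Some were inverted stretches. On chromosome 7, the 4 cytoplasmic kinases of a run read OsWAK72, OsWAK71, OsWAK70 and OsWAK69 from left to right. Chromosome 3 had OsWAK27 before OsWAK26, chromosome 11 had OsWAK123 before OsWAK122, and chromosome 4 had OsWAK34 and OsWAK33 before OsWAK32. Others were numbers set far from their neighbours. OsWAK60 (LOC_Os04g30240) lay between OsWAK46 and OsWAK47, and OsWAK59, OsWAK58 and OsWAK57 followed OsWAK48, while OsWAK56 was the member on chromosome 5. Further right on chromosome 4 the order was OsWAK51, OsWAK52, OsWAK50 and OsWAK53b. On chromosome 8, the receptor-like protein OsWAK115 (LOC_Os08g27810, 16939596 to 16941786) stood next to OsWAK77, although OsWAK114 is on chromosome 10 and OsWAK116 on chromosome 11. OsWAK77 was itself out of order, as it lay to the left of OsWAK73 to OsWAK76. On chromosome 9, the pseudogene OsWAK86 (LOC_Os09g16980) was the leftmost member, before OsWAK79. In each of the 3 shared numbers, the loci were neighbours. OsWAK89a and OsWAK89b lay side by side on the plus strand, while OsWAK35d and OsWAK35a, and likewise OsWAK129c and OsWAK129b, occupied the same stretch on opposite strands.

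**Figure D3:**
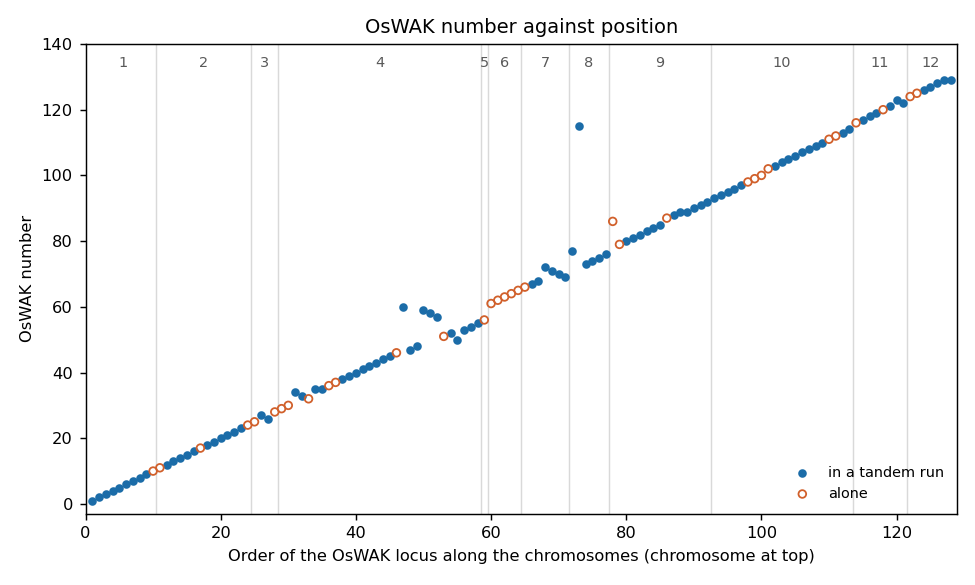
OsWAK number (y axis) against the order of the loci along the chromosomes (x axis, rank; chromosome numbers at the top), with filled points for members of a tandem run and open points for members alone. Most points follow the diagonal, and OsWAK60, OsWAK57 to OsWAK59, OsWAK77, OsWAK86 and OsWAK115 lie off it.

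Members were often close to each other. Members at most 5 places apart in the order of all loci on a chromosome were joined into a run. By this rule 95 of the 128 loci (74.2%) fell into 29 runs and 33 stood alone. There were 12 runs of 2 members, 8 of 3, 2 of 4, 3 of 5 and 4 of 6, and the runs of 5 or 6 held 39 loci. A run spanned from 7.5 to 93.8 kb, with a median of 30.2 kb. Runs held members mostly with other loci in between, as 21 of the 66 neighbouring pairs within runs were adjacent loci. With adjacent loci alone joined, 36 loci in 15 runs were left. By distance, 6 pairs were exactly 5 places apart and thus just inside the limit, and 10 pairs were 6 to 10 places apart and thus just outside it.

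Within runs, 52 of the 66 neighbouring pairs (78.8%) lay on the same strand. In 6 pairs the loci pointed towards each other. In the remaining 8, the first locus by start was on the minus strand and the second on the plus strand. Of these 8, 2 were overlapping pairs with 1 locus inside the other. In the rest of the 8 the loci pointed away from each other. For the 50 neighbouring pairs outside runs, the share on the same strand was 68.0%. In 21 of the 29 runs all members were on 1 strand. The subtypes were more mixed, with 11 runs of a single subtype. Neighbours in a run had the same subtype in 38 of 66 pairs (57.6%), against 21 of 50 pairs (42.0%) outside runs. By subtype, 72.2% of the receptor-like protein kinases and 81.5% of the cytoplasmic kinases, 9 of 12 receptor-like proteins, 9 of 12 short genes and 3 of 5 pseudogenes were in runs. Loci in runs had a median length of 3266 bp and those alone one of 4062 bp.

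The most compact of the larger runs was on chromosome 12. OsWAK126, OsWAK127b, OsWAK128b, OsWAK129c and OsWAK129b followed each other from 26073357 to 26097944 without any other locus between them, and their strands alternated in the order plus, minus, plus, minus, plus. All but OsWAK127b, a short gene, were receptor-like protein kinases, and gene models covered 66.2% of the 24.6 kb. OsWAK127b and OsWAK128b pointed away from each other with 227 bp between them, the smallest gap of all neighbouring pairs in runs that do not overlap. This pair was followed by OsWAK129c and OsWAK129b, which overlap by 4075 bp, so that OsWAK129b lies wholly within OsWAK129c on the other strand.

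Chromosome 9 had 2 runs of 6 with contrasting makeup. From 17949936 to 18008036, OsWAK80, OsWAK81, OsWAK82, OsWAK83, OsWAK84 and OsWAK85 all lay on the minus strand and covered 4 subtypes, with 3 cytoplasmic kinases and 1 each of receptor-like protein kinase, pseudogene and receptor-like protein. From 22292349 to 22351495, all on the plus strand, the pseudogene OsWAK88 was followed by 5 receptor-like protein kinases, OsWAK89a, OsWAK89b, OsWAK90, OsWAK91 and OsWAK92. The 5 loci from OsWAK88 to OsWAK91 were adjacent, with gaps of 7397, 1978, 1416 and 1076 bp. OsWAK92, like OsWAK91 a known contributor to blast resistance, lay 29873 bp past OsWAK91 with 4 other loci between them.

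On chromosome 4, 16 of the 30 members lay within 541.2 kb, from OsWAK37 at 17584989 to OsWAK57, which ends at 18126139. They were 11 receptor-like protein kinases, 3 receptor-like proteins, 1 cytoplasmic kinase and 1 short gene, 13 of them on the minus strand. Between them lay 59 other loci, of which 27 (45.8%) were marked as TEs. The share over all loci of the chromosome was 35.8%. These shares are not counted alike, as the first leaves out the 16 OsWAK loci of the stretch, which are not TEs by the selection rule. No excess of TEs can be read from them. By the rule of 5 places this stretch was divided into 3 runs, OsWAK38 to OsWAK40, OsWAK41 to OsWAK45, and the 6 members from OsWAK60 to OsWAK57, with OsWAK37 and OsWAK46 alone. The run OsWAK41 to OsWAK45 was the longest of all with 93.8 kb, and the largest gap between neighbours of a run, 50420 bp, was found between OsWAK38 and OsWAK39.

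The other runs of 5 or 6 were on chromosomes 1 and 2. OsWAK5 to OsWAK9 spanned 80.3 kb on chromosome 1, from 14825144 to 14905421, with 4 receptor-like protein kinases and the cytoplasmic kinase OsWAK9 on both strands, and the loci themselves covered 12.9% of the span. OsWAK18b to OsWAK23 spanned 69.6 kb on chromosome 2, from 34483996 to 34553609. This run had a short gene at each end and a further one, OsWAK19 (LOC_Os02g56350, 315 bp), next to the first. Its inner part was made of the receptor-like protein kinases OsWAK20 and OsWAK22 and the cytoplasmic kinase OsWAK21, all on the minus strand.

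**Figure D4:**
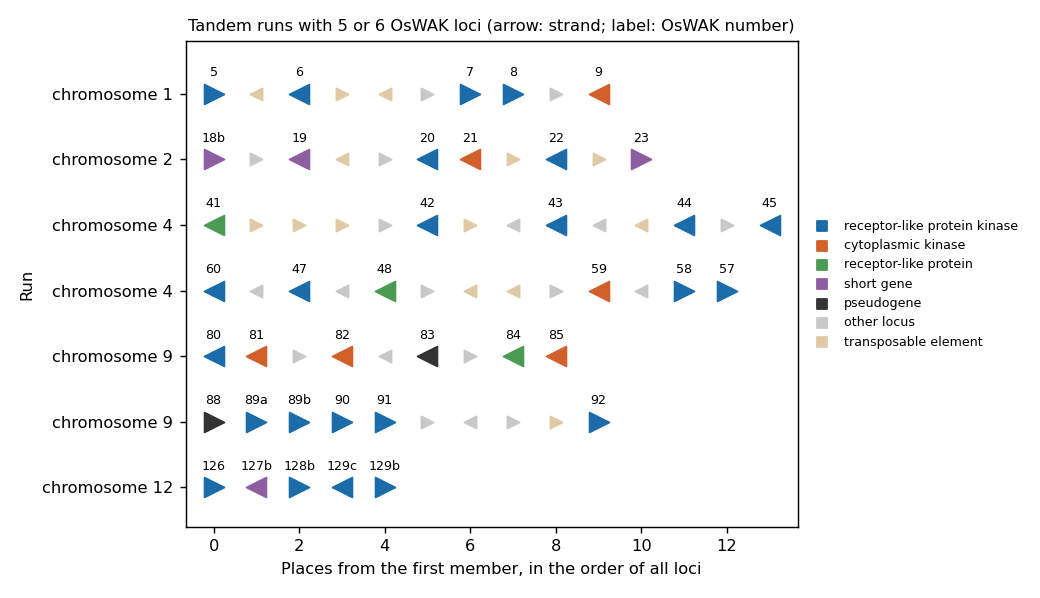
The 7 tandem runs with 5 or 6 OsWAK loci, with the place of each locus counted from the first member (x axis, places in the order of all loci). Large arrows are OsWAK loci with their numbers and small arrows are other loci, the direction of an arrow is the strand and its colour the subtype. The run on chromosome 12 has no other locus inside and alternates in strand, while both runs on chromosome 9 lie on 1 strand.

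Among the smaller runs, subtypes were uniform in several. Chromosome 7 held 4 cytoplasmic kinases on the plus strand within 86.5 kb (OsWAK72 to OsWAK69), and 3 cytoplasmic kinases on the minus strand of chromosome 11 (OsWAK117 to OsWAK119) included OsWAK118, which lacks the expressed mark. On chromosome 1, OsWAK1 with OsWAK2 and OsWAK3 with OsWAK4 were both pairs of cytoplasmic kinases. OsWAK14, known in blast resistance, formed a run of receptor-like protein kinases with OsWAK15 and OsWAK16 on the minus strand of chromosome 2, from 25348221 to 25377893. On chromosome 10, OsWAK95 to OsWAK97, OsWAK103 to OsWAK105 and the pair OsWAK109 and OsWAK110 were also receptor-like protein kinases throughout. A receptor-like protein stood beside a cytoplasmic kinase in the pairs OsWAK77 and OsWAK115 on chromosome 8, OsWAK93 and OsWAK94, and OsWAK113 and OsWAK114 on chromosome 10.

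The members that stood alone included OsWAK25 (LOC_Os03g12470, chromosome 3, 6589671 to 6594037), OsWAK11 (LOC_Os02g02120, chromosome 2, 627342 to 630655) and OsWAK112d (chromosome 10, 5538022 to 5544580). All 5 members on chromosome 6, OsWAK61 to OsWAK65, were alone by the rule of 5 places. However, OsWAK62 and OsWAK63 were only 6 places apart, and OsWAK64 and OsWAK65 were 10 places apart. On chromosome 12, OsWAK124 and OsWAK125, both receptor-like proteins, were alone as well. Each had a locus described as wall-associated receptor kinase 3, without an OsWAK name, within 5 places (LOC_Os12g16520 and LOC_Os12g29434).

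Within the runs, 89 other loci lay between the OsWAK loci. Of these, 38 (42.7%) were marked as TEs, and the share over all loci of the annotation was 30.3%. These shares are not counted alike. The first leaves out the 95 OsWAK loci of the runs, which are not TEs by the selection rule, so it shows no excess of TEs. Of the 51 loci in between that were not marked as TEs, 46 were marked as expressed, and 30 had no description beyond expressed protein. Another 5 were described as wall-associated kinases or receptor kinases without an OsWAK name.

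Other gene families of the annotation served to set the run counts in context. Families were taken by words in the description in the same way, and the differences were not tested. At up to 5 places, 74.2% of the OsWAK loci were in runs, 67.1% of the 140 peroxidase precursor loci, 57.1% of the 350 cytochrome P450 loci, 52.3% of the 214 NBS-LRR or NB-ARC loci and 51.7% of the 542 other receptor-like kinases. The other receptor-like kinases include 18 loci described as wall-associated receptor kinases without an OsWAK name. With adjacent loci alone joined, the order was different. The share was then 28.1% for OsWAK, below 46.4% for peroxidase precursors and 39.4% for cytochrome P450 and close to 29.2% for the other receptor-like kinases. The largest OsWAK runs had 6 loci. The largest run had 6 loci for NBS-LRR or NB-ARC and 7 for peroxidase precursors, and it had 14 for cytochrome P450 and 17 for the other receptor-like kinases, the families with the most loci.

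**Figure D5:**
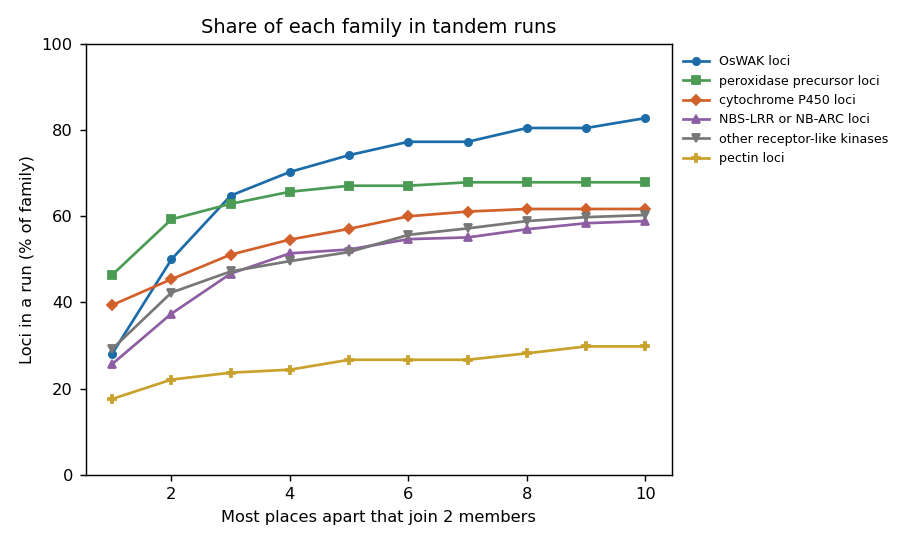
Share of the loci of each family that lie in a tandem run (y axis, percent of the family) against the largest number of places that joins neighbouring members (x axis). The OsWAK line starts at 28.1% for adjacent loci, under the peroxidase precursors and cytochrome P450, and stands highest of the 6 families at 5 places with 74.2%.

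Pectin, to which the extracellular part of a typical wall-associated kinase binds, is modified by enzymes that form families of their own. Whether the proteins of the OsWAK loci bind pectin was not examined. The annotation held 131 loci described as pectinesterase (54), polygalacturonase (55), pectate lyase (12) or pectin acetylesterase (10), which remove methyl groups, cut the chain or remove acetyl groups. All 131 were marked as expressed. Their median length was 2307 bp, and 35 of them (26.7%) were in runs at up to 5 places, the largest with 4 loci.

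Overlaps with other annotated loci concerned 8 of the 128 members. The share of all non-TE loci with such an overlap is not given here, so 8 cannot be called many or few. In 4 of these the overlap was within the family, in the opposite-strand pairs OsWAK35d with OsWAK35a (5216 bp) and OsWAK129c with OsWAK129b (4075 bp). In both pairs the smaller locus lay wholly inside the larger one. OsWAK10d overlapped LOC_Os01g49510, a prolyl oligopeptidase homologue on the other strand, by 1649 bp, and OsWAK11 overlapped LOC_Os02g02110, an Alg9-like mannosyltransferase on the other strand, by 1084 bp. OsWAK19 (315 bp) and OsWAK73 (5282 bp) each lay wholly inside a TE locus on their own strand. For OsWAK73 this was a Ty1-copia retrotransposon locus of 16686 bp. The libraries of the study were made with a strand-specific method. How reads in these overlaps were assigned was not examined.

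The 2000 bp upstream of the representative gene model were free of other loci for 93 OsWAK loci and reached into another locus for 35 (27.3%), against 34.9% of the 38864 non-TE loci on the chromosomes. In 8 of the 35 the locus reached was itself an OsWAK locus. These were OsWAK35a, OsWAK89b, OsWAK90, OsWAK91, OsWAK97, OsWAK127b, OsWAK128b and OsWAK129b. OsWAK127b and OsWAK128b each lay in the upstream window of the other. With a window of 1000 bp, 15 OsWAK loci (11.7%) and 16.7% of the non-TE loci reached another locus.

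The transcription factor gene ART1 (LOC_Os12g07280), from 3580032 to 3582974 on chromosome 12, is a candidate gene for Alt12.1. ART1 lies in the exchanged segment of each near-isogenic line, together with other genes. No OsWAK locus lay to its left on the chromosome. The nearest was OsWAK124 (LOC_Os12g16540, minus strand, 9476374 to 9478894), 5.89 Mb to the right and 874 places away in the order of loci. OsWAK125 was 13.9 Mb away, and the 5 loci of the run OsWAK126 to OsWAK129b began 22.49 Mb away.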

How the data were processed

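RNA-seq libraries of rice roots were made by the authors for 4 genotypes with and without Al, and reads were processed with Trimmomatic, Bowtie and HISAT per the labels. The deposited file is the MSUv.7 annotation, which gives 1-based start and stop positions in bp and marks for 66338 gene models, and the number of columns with values per library is 0. Read depth and expression were therefore not analysed here, and the samples were not compared.

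Gene models were merged into loci from lowest start to highest stop, and loci were ordered by start on each chromosome, TE loci included. A run had at least 2 members, with neighbours at most 5 places apart. Subtypes and families were assigned by words in the representative description. Named members were those at the extremes of length, in the largest runs, at breaks or repeats of the numbering, at the ends of the numbering on a chromosome, without the expressed mark, with 3 or more gene models, with the smallest or largest gap in a run, or nearest to ART1. Other members that the text names, among them those known in disease resistance, were added with their values in view. The joining of runs was tested on simulated data built with the same limit of 5 places, which checks the code and not the choice of limit. The members and lists were chosen with earlier results of these data known. The alternatives were another joining distance (adjacent, 10 places, 50 kb), an order without TE loci, other rules for members, length, mark and numbering, and an upstream window of 1000 bp. No sequence was used. Scripts ran under Python 3.11.15, with pandas 2.3.3 and numpy 2.4.6 for the tables, matplotlib 3.10.9 for the figures and scipy 1.17.1.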

Additional observations from a re-analysis of the deposited data

How the results depend on the processing

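Of 16 alternatives, 13 left the value close to the main one, where close for a count means within a factor of 1.5. The 3 that did not were the joining of adjacent loci only, which gave 36 OsWAK loci in runs against 95 and 15 runs against 29, and the upstream window of 1000 bp, chosen after seeing the data, which gave 15 windows that reach another locus against 35. A stricter joining rule cannot add loci to runs and a shorter window cannot reach more loci, while the number of runs can move either way. In runs, 98 to 106 loci were found with the other joining rules, in 29 or 30 runs. The family had 128 loci with any gene model or with TE loci kept and 150 with the word wall-associated added. The median length was 3337.5 bp for representative models and 3469 bp for loci marked as expressed. The number rose in 96 of 110 neighbouring pairs without repeated numbers. No paired analysis was possible because only annotation marks and positions were analysed, with no value for any library.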

Other observations

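Beside the OsWAK loci, 22 loci were described as wall-associated kinases or wall-associated receptor kinases without an OsWAK name. All 22 were marked as expressed and none as a TE. Their median length was 4272 bp, from 441 bp in LOC_Os11g46850 to 8055 bp in LOC_Os11g46950. Of these loci, 12 lay at most 5 places from an OsWAK locus, and 9 of the 22 were on chromosome 4, where 6 fell within the stretch from OsWAK37 to OsWAK57. LOC_Os04g51030, described as wall-associated kinase 1, lay 1098 bp from OsWAK50. A group of 4 on chromosome 11, LOC_Os11g46850, LOC_Os11g46860, LOC_Os11g46900 and LOC_Os11g46950, lay 98461 to 204974 bp to the left of OsWAK121. LOC_Os10g07548 and LOC_Os10g07556 lay 924006 and 948371 bp from the nearest OsWAK locus, OsWAK105. A count of the family by the name OsWAK alone therefore leaves out loci that the same annotation describes with similar words, and whether their sequences belong to the family was not examined.

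A letter follows the number in 12 of the 128 names, as in OsWAK10d, OsWAK18b and OsWAK112d. What the letters stand for is not given in the sources used here. Of these 12 loci, 6 had an identifier that does not end in 0, against 8 of the 116 loci without a letter, and 6 of the 12 had more than 1 gene model, against 6 of the 116.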
